A study of Rattus norvegicus with 17 samples.

Results

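The levels of 6 transcripts that the study listed as changed with pimozide were followed in the spinal cords of 17 rats. They are 6 of the 32494 genes in the count table, and they were selected because of their levels in groups D and E. Therefore the levels in these groups are given as a description and are not tested. Of the 6, 5 belong to classes of small non-coding RNA: AABR07021745.1 (ENSRNOG00000057562), matched by the study to the human spliceosomal RNA gene RNU5E-1; AC129753.3 (ENSRNOG00000056054), matched to the small nucleolar RNA gene SNORD118; AC135285.4 (ENSRNOG00000051492), matched to SNORA74A; AABR07031718.1 (ENSRNOG00000052373), matched to the vault RNA gene VTRNA1-3; and AABR07052780.3 (ENSRNOG00000052180), matched to RN7SL674P, a copy of the 7SL RNA gene. The sixth, Rps27a-ps1 (ENSRNOG00000034246), is not a small RNA. It is a copy of the ribosomal protein gene Rps27a and is typed as protein-coding in the list of the study and as a pseudogene in RefSeq, so the name "small RNAs" holds for 5 of the 6. All 6 passed the filter on low counts over the 17 rats, which left 15460 genes, but some did so only through the groups in which they were high.

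All rats were young-adult female Sprague-Dawley rats, in which an electrode was lowered into the nucleus raphe magnus (NRM), a midline nucleus of the lower brainstem with serotonergic projections to the cord, under anesthesia 3 days after injury or sham injury. Group A (4 rats) had sham injury and sham stimulation, group B (3 rats) spinal cord injury (SCI, caused by a moderate thoracic contusion) and sham stimulation, group C (3 rats) SCI and 2 h of stimulation, group D (2 rats) SCI, stimulation and 1 mg/kg of pimozide, an antagonist of serotonin and dopamine receptors, and group E (5 rats) sham injury and stimulation. For group E the treatment label of the samples reads unstimulated, against their titles and the study's definition of the group, and these rats were analyzed as stimulated. Group D had only 2 rats, and there was no group given pimozide without stimulation, so that an effect of pimozide alone cannot be told apart from one that needs stimulation. Each library was made from 1 rat, with cervical, thoracic and lumbar blocks combined, and in such bulk samples fewer cells of a type and less RNA per cell cannot be told apart.

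The transcripts serve basic steps of RNA and protein production. U5, the RNA of RNU5E-1, lies at the core of the spliceosome and holds the exon ends while they are joined. U8, the RNA of SNORD118, is a box C/D small nucleolar RNA needed to process the RNAs of the large ribosomal subunit, and in humans inherited variants of its gene cause a disease of the cerebral white matter with calcifications and cysts. SNORA74A (U19) is a small nucleolar RNA of the H/ACA class, which guides the conversion of uridine to pseudouridine. Vault RNAs are made by RNA polymerase III and are partly bound to the vault, a large cytoplasmic particle, and 7SL is the scaffold of the signal recognition particle, which brings ribosomes to the endoplasmic reticulum. Rps27a encodes ubiquitin fused to a protein of the small ribosomal subunit. Such genes occur in many near-identical copies, and the counter used kept reads with a single place in the genome, so the counts of a copy may hold only a part of its reads or some of those of its relatives. Values are in CPM (counts scaled to the total counts of the library, with TMM, a correction for library composition). Levels were compared between rats. They were ranked between transcripts only to name the most abundant, by mean CPM and without correction for length. Transcript lengths were not analysed here.

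The library of rat 82 stood apart from its group in the small RNAs, which the study had listed from contrasts between groups. The libraries had 9852873 to 14137717 counts on genes. The 35 small RNAs named by the study (5 of the 6 transcripts and 30 others) took 0.0392 to 0.063% of the counts in 9 rats of groups A, B and C, and 0.197 to 0.494% in the rats of groups D and E. Rat 82 of group A had 0.307%, whereas the other 3 rats of group A had 0.0478 to 0.0548%. Rat 82 was above every other rat of group A in 6 of 6 transcripts, in 29 of 30 other small RNAs and in 25.9% of all genes tested. The number of genes with at least 1 count in rat 82 (19252) and its summed level of 6 neutrophil genes also lay within the range of groups D and E, whereas its TMM factor of 0.977 was under those of all their rats and its summed level of 8 red cell genes, 1080 CPM, above theirs. Whether its group label is right was not tested. The contrasts of the 6 transcripts with group A are therefore given with rat 82 and without it.

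AABR07021745.1, the U5 copy, had its 7 highest levels in the 7 rats of groups D and E. It was at 0.729, 2.82, 0.664 and 0.986 CPM in rats 70, 82, 83 and 84 of group A, at 0.183, 1.83 and 0.962 CPM in rats 91, 94 and 95 of group B, and at 0.695, 0.552 and 0.607 CPM in rats 89, 90 and 93 of group C. It was at 6.84 and 11.5 CPM in rats 75 and 76 of group D and at 5.27, 4.06, 2.94, 6.85 and 8.75 CPM in rats 69, 85, 86, 87 and 88 of group E. Group E lay above group A without overlap, with a narrow gap between rat 82 and rat 86, and groups A, B and C overlapped. The group means were 1.30 ± 1.02 CPM (SD, n = 4) in A, 0.991 ± 0.822 (n = 3) in B, 0.618 ± 0.072 (n = 3) in C, 9.18 ± 3.32 (n = 2) in D and 5.57 ± 2.29 (n = 5) in E, and group A without rat 82 had 0.793 ± 0.17 (n = 3).

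AC129753.3, the U8 copy, varied little among the injured rats without pimozide and was high in both D and E. It was at 0.833, 4.08, 1.8 and 1.38 CPM in the rats of group A (in the order of rats above, here and below), at 1.19, 1.25 and 1.15 CPM in group B, and at 1.82, 1.47 and 1.13 CPM in group C. It was at 8.48 and 12.8 CPM in group D and at 7.05, 5.93, 4.06, 7.69 and 9.71 CPM in group E. Rat 82 of group A and rat 86 of group E had almost the same level, and without rat 82 groups A and E did not overlap. Means were 2.02 ± 1.42 CPM in A (1.34 ± 0.486 without rat 82), 1.2 ± 0.0477 in B, 1.47 ± 0.348 in C, 10.6 ± 3.06 in D and 6.89 ± 2.1 in E.

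AC135285.4, the SNORA74A copy, showed the widest gap between rat 82 and its group. It was at 2.08, 16.1, 1.23 and 1.97 CPM in group A, at 1.1, 3.46 and 1.73 CPM in group B, and at 1.39, 2.12 and 1.74 CPM in group C. It was at 21.9 and 25.6 CPM in group D and at 22.5, 19.8, 9.86, 12.2 and 26.5 CPM in group E. Rat 82 was at 7.75 times the next rat of group A and above rats 86 and 87 of group E. Means were 5.36 ± 7.2 CPM in A (1.76 ± 0.461 without rat 82), 2.1 ± 1.22 in B, 1.75 ± 0.363 in C, 23.8 ± 2.59 in D and 18.2 ± 7.0 in E.

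AABR07031718.1, the vault RNA, also separated groups D and E from the injured rats of groups B and C. It was at 3.33, 17.5, 2.18 and 4.04 CPM in group A, at 2.11, 8.46 and 7.02 CPM in group B, and at 4.08, 4.97 and 4.34 CPM in group C. It was at 30.4 and 43.6 CPM in group D and at 20.9, 16.9, 14.8, 19.7 and 31.1 CPM in group E. Again rat 82 lay within the range of group E, and the other rats of groups A, B and C lay under all rats of D and E. Means were 6.76 ± 7.19 CPM in A (3.19 ± 0.938 without rat 82), 5.86 ± 3.33 in B, 4.46 ± 0.456 in C, 37.0 ± 9.31 in D and 20.7 ± 6.3 in E.

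AABR07052780.3, the 7SL copy, rested on few reads. It had 2, 12, 3 and 0 counts in group A, 0, 0 and 2 in group B, 2, 2 and 2 in group C, 16 and 13 in group D and 11, 28, 13, 15 and 15 in group E. In CPM these were 0.208, 0.94, 0.285 and 0 in A, 0, 0 and 0.192 in B, 0.174, 0.184 and 0.174 in C, 1.14 and 1.18 in D, and 0.935, 2.18, 0.909, 1.41 and 1.31 in E. It was the only transcript of the 6 whose mean was higher in E (1.35 ± 0.517 CPM) than in D (1.16 ± 0.0287 CPM), but the groups overlapped.

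Rps27a-ps1, the ribosomal protein copy, followed the small RNAs with smaller differences. It was at 0.625, 2.35, 0.569 and 0.394 CPM in group A, at 0.825, 0.481 and 0.577 CPM in group B, and at 1.13, 1.29 and 0.521 CPM in group C. It was at 2.71 and 4.18 CPM in group D and at 2.38, 2.96, 1.4, 2.34 and 2.97 CPM in group E. Rat 86 of group E, at 1.4 CPM, was little above rat 90 of group C, at 1.29 CPM. Means were 0.985 ± 0.916 CPM in A (0.529 ± 0.12 without rat 82), 0.628 ± 0.178 in B, 0.979 ± 0.405 in C, 3.44 ± 1.04 in D and 2.41 ± 0.643 in E.

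**Figure D1:**
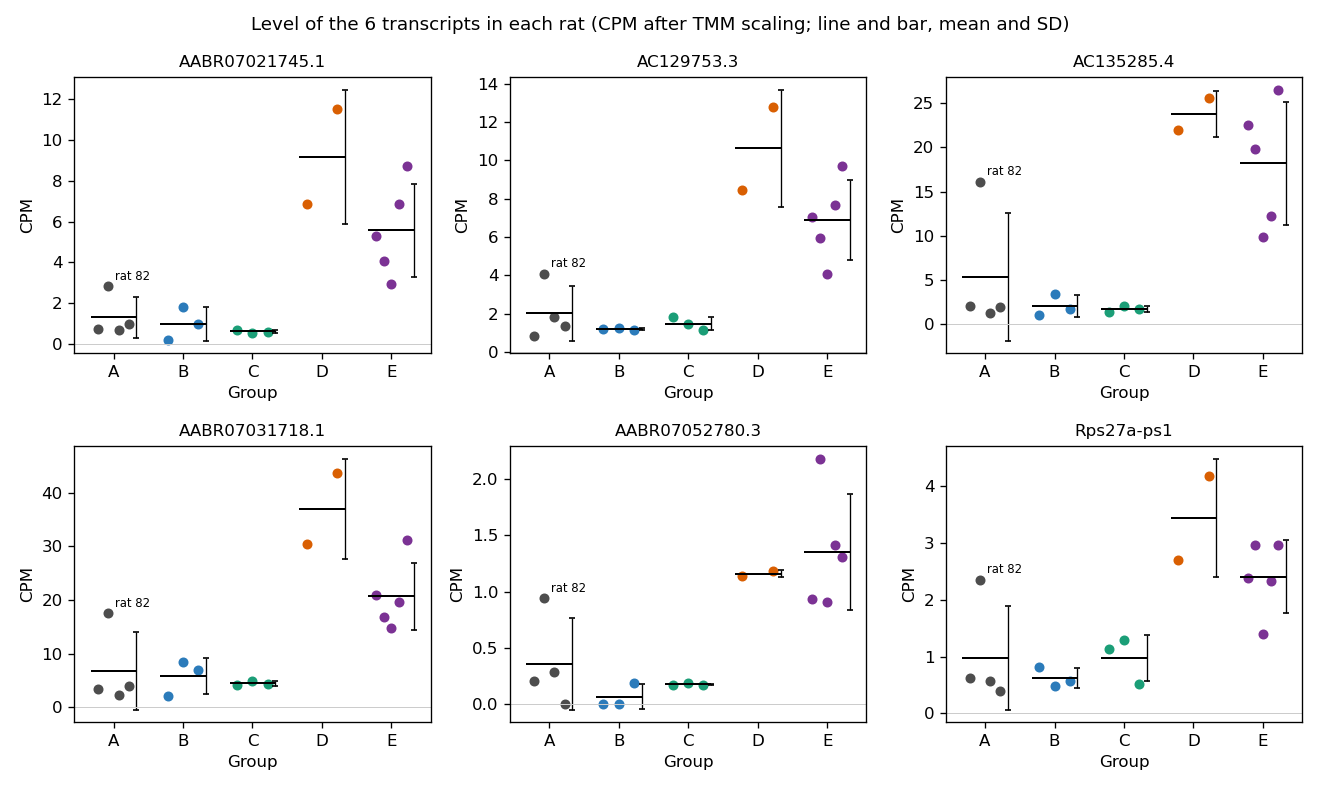
Level of each of the 6 transcripts in every rat, in CPM on a linear axis, by group; each dot is a rat, the line the group mean and the bar the SD. In each panel the dots of groups D and E lie above those of groups B and C, and rat 82 is the highest dot of group A.

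Ordered by group means, D was the highest and E the second for 5 of the 6 transcripts, and E was the highest for AABR07052780.3. The mean of D was 0.859 to 1.79 times that of E, and D and E overlapped for each of the 6. Below them groups A, B and C overlapped pairwise for all 6 transcripts. Of all genes tested, 32.6% did not overlap between B and A, 6.15% between C and B and 28.9% between C and A. Without rat 82, A and C did not overlap for 1 of 6 transcripts, AABR07031718.1, which was at 4.08 CPM or more in C and at most 4.04 CPM in A, beside 34.4% of all genes.

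The contrasts that served to choose the transcripts are described without a test. In ±pim(st/SCI), which compares pimozide with its absence in stimulated, injured rats (D/C), log2(FC) from the fit was 3.86 for AABR07021745.1 (SE 0.64), 3.76 for AC135285.4 (SE 0.78), 3.05 for AABR07031718.1 (SE 0.61), 2.84 for AC129753.3 (SE 0.45), 2.64 for AABR07052780.3 (SE 0.81) and 1.80 for Rps27a-ps1 (SE 0.54). Both rats of D were above all 3 rats of C for 6 of 6 transcripts, and the same was true of 8.77% of all genes tested. In ±st(0), which compares stimulation with its absence in uninjured rats (E/A), log2(FC) ranged from 1.22 for Rps27a-ps1 (SE 0.42) to 2.03 for AABR07021745.1 (SE 0.46), with a median of 1.70. The 5 rats of E were above all 4 rats of A for 1 of 6 transcripts, AABR07021745.1, against 1.28% of all genes. Without rat 82 the median was 2.74, the highest value was 3.36 for AC135285.4 (SE 0.39), and E lay above A for 6 of 6 transcripts, against 5.71% of all genes. In ±SCI(st), which compares injury with its absence in stimulated rats (C/E), the 6 log2(FC) ranged from -3.37 for AC135285.4 to -1.29 for Rps27a-ps1. Groups A and C each serve in several contrasts, so the contrasts are not independent of each other.

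The other 3 contrasts did not themselves serve in the choice, but groups A and C did, so their tests are not independent of it. They were tested with edgeR's quasi-likelihood test over all 15460 genes, with a call at FDR under 0.05 and a log2(FC) beyond 1 in size. With the filter applied to the groups of the contrast alone, 4 of 6 transcripts passed in ±SCI(0), 3 of 6 in ±st(SCI) and 4 of 6 in ±st/SCI(0). AABR07052780.3 failed in all 3, AABR07021745.1 in ±st(SCI) and ±st/SCI(0), and Rps27a-ps1 in ±SCI(0) and ±st(SCI), so these were tested there only because of other groups, and neither a p nor the lack of a call is evidence about them there. In ±SCI(0), the effect of injury alone (B/A), 0 of 6 transcripts were called, against 5.3% of all genes. At an unadjusted p under 0.05 there was 1 of 6, AABR07052780.3, lower in B and 1 of those admitted by other groups, where 11.8% of all genes were lower by that measure. DESeq2 and edgeR's exact test on the dispersions of all rats also called 0 and had 1 at an unadjusted p under 0.05, and the exact test on both groups alone had 0. This transcript had 2 counts in all of B and 17 in A, 12 of them in rat 82. AC135285.4 had a log2(FC) of -1.41 (95% interval -2.97 to 0.15, adjusted p = 0.22 in edgeR's test). Without rat 82 its log2(FC) was 0.25, and 0 of 6 had an unadjusted p under 0.05. AABR07031718.1, the vault RNA, moved from -0.25 (SE 0.56) to 0.88 (SE 0.42, adjusted p = 0.21) when rat 82 was left out. The median of the 6 log2(FC) moved from -0.74 to 0.25, beside a median over all genes of -0.02 in both fits.

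In ±st(SCI), the effect of stimulation in injured rats (C/B), 0 of 6 transcripts were called and 0 had an unadjusted p under 0.05 by edgeR's quasi-likelihood test, by both forms of its exact test and by DESeq2. Of all genes, 0.0% were called by the quasi-likelihood test and 3.08% had an unadjusted p under 0.05. The study, which used edgeR's exact test with the same limits, did list genes as changed in this contrast. The median log2(FC) of the 6 was 0.02, and 3 of 6 were above 0. The intervals were wide. For AC129753.3 log2(FC) was 0.30 (95% interval -0.77 to 1.36), for AC135285.4 -0.26 (-2.13 to 1.61), for AABR07021745.1 -0.66 (-2.22 to 0.90) and for AABR07031718.1 -0.39 (-1.70 to 0.92). For Rps27a-ps1 it was 0.62 (-0.65 to 1.90), and AABR07052780.3 had 6 counts in C and 2 in B. For each of the 6, a log2(FC) of 1 in at least 1 direction lay within the interval.

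In ±st/SCI(0), injury with stimulation against neither (C/A), 0 of 6 transcripts were called, against 7.13% of all genes. Of the 6, 1 had an unadjusted p under 0.05, AC135285.4, at a log2(FC) of -1.67 (95% interval -3.25 to -0.09, adjusted p = 0.12 in edgeR's test), where 16.5% of all genes were lower by that measure. DESeq2 and the exact test on all dispersions also called 0 with 1 at that p, and the exact test on both groups alone had 0. Without rat 82 this log2(FC) was -0.01, 0 of 6 had an unadjusted p under 0.05 and the median of the 6 moved from -0.86 to 0.11.

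**Figure D2:**
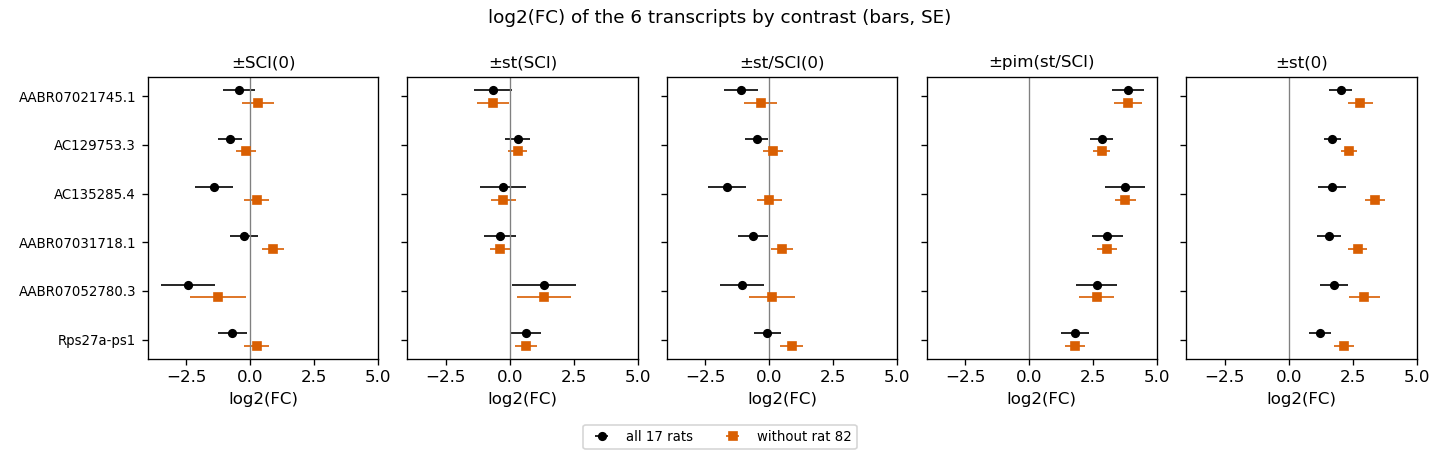
log2(FC) of the 6 transcripts in 5 contrasts, with SE as bars; circles are fits of all 17 rats and squares fits without rat 82. The first 3 panels are the tested contrasts, with 0 of 6 called, and the last 2 the contrasts that chose the transcripts; leaving out rat 82 moves the points to the right in the 3 contrasts with group A.

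The 6 transcripts varied together. Over 17 rats the correlation r of log2(CPM + 0.5) between pairs of them was 0.84 to 0.97 (median 0.91, 15 pairs). The rats fall into 2 sets, high and low, and r over all of them includes this separation. With each group's mean subtracted, r was 0.41 to 0.91 (median 0.71), and without rat 82 it was -0.01 to 0.90 (median 0.29), positive in 14 of 15 pairs. These values are a description, and the points share a library and its depth.

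Other transcripts shared the pattern. Of 15454 other genes tested, 33 had r of at least 0.9 with the mean of the 6 over 17 rats, and 4 had r of -0.9 or less. Among the 33 were 20 of the 29 other small RNAs tested, 11 genes without a name here and 2 other named genes, LOC100361457 (r = 0.91) and the ribosomal protein copy Rps21-ps1 (r = 0.90). The 6 most alike were all small RNAs. AABR07051357.1 (r = 0.973), matched to U6atac of the minor spliceosome, averaged 1.66 CPM in B, 1.19 in C, 16.4 in D and 15.8 in E, and in group A it was at 11.4 CPM in rat 82 and at most 1.71 CPM in the others. AC119459.5 (r = 0.972), a small nuclear RNA, followed, with 1.87 CPM in C and 9.75 in D. AC134024.2 (r = 0.964), matched to SNORA21, had 1.79 CPM in C and 7.72 in D. AABR07060522.3 and AABR07060522.2 (r = 0.962 and 0.961) are both assigned to the family of Y RNAs, which bind the Ro protein, and AC097575.3 (r = 0.96) was matched to the spliceosomal RNA U4. Without the 2 rats farthest from the median of the score, 76 and 88, r of these 6 was 0.955 to 0.972. With group means subtracted and without rat 82, r was 0.54 to 0.78.

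The study listed 30 more small RNAs, 29 of which passed the filter, and they too were picked on group D. By class, the 8 small nuclear RNAs tested had a median log2(FC) of 2.59 in ±pim(st/SCI), the 5 miscellaneous RNAs 2.54, the 15 small nucleolar RNAs 1.93 and the mitochondrial tRNA AY172581.15 3.08, beside a median of 2.94 for the 6 transcripts. Of the 29, 28 had both rats of D above all rats of C, as had 8.77% of all genes, and this too follows the choice. The 2 most abundant small nuclear RNAs were AC097575.3, with 64.5 ± 6.61 CPM in C, 193 ± 12.8 in D and 212 ± 43.8 in E, and AABR07051357.1. The 2 most abundant small nucleolar RNAs were AC136563.3, with 184 CPM in C, 444 in D and 427 in E, and AABR07036645.1, matched to SNORA49, with 6.45, 16.8 and 22.3 CPM. The Y RNA AABR07060522.3 reached 127 ± 22.4 CPM in C, 965 ± 234 in D and 1270 ± 549 in E, and AABR07060522.2 reached 69.9, 831 and 1060 CPM. The exception was the small nucleolar RNA AABR07043200.1, which the study listed for ±st(SCI) and not for pimozide. It was at 0 in the 3 rats of C and averaged 0.999 ± 0.689 CPM in A and 0.961 ± 1.36 in D, and its r with the 6 transcripts was 0.157.

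The contrast ±st(0) was not used to choose these other small RNAs, and it shares no rat with ±pim(st/SCI). Of the 29, 28 were higher in E than in A, with a median log2(FC) of 1.32, or 2.15 without rat 82. By edgeR's quasi-likelihood test 0 of 29 were called, as were 0.0% of all genes, and 26 of 29 were higher at an unadjusted p under 0.05, against 3.58% of all genes. With the filter applied to groups E and A alone, 27 of 29 passed, so the others were tested only because of other groups. These RNAs varied together, 20 of 29 with r of at least 0.9 with the 6 transcripts, so the count does not stand for separate results. The study, which used edgeR's exact test, listed some of these RNAs as raised in this contrast. DESeq2 called 6 of the 19 to which it gave an adjusted p, against 0.0878% of all genes, and the exact test on all dispersions 3 of 29, against 0.0517%. With all rats, E lay above A without overlap for 1 of 29, against 1.28% of all genes. Without rat 82 the quasi-likelihood test called 22 of 29 as higher, against 0.266% of all genes, and E lay above A for 28 of 29, against 5.71% of all genes. Rat 82 had been singled out for its high levels of these same RNAs, so the values without it depend on the outcome and are not independent evidence of a difference.

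The 3 remaining contrasts bear less on these 29. Groups A, B and C were low in most of them, and with the filter applied to both groups compared alone, 19 of 29 passed in ±SCI(0), 18 in ±st(SCI) and 19 in ±st/SCI(0). Low levels in group C were moreover part of the choice, which the contrasts ±st(SCI) and ±st/SCI(0) share. In ±SCI(0) the quasi-likelihood test called 0 of 29, against 5.3% of all genes, with 4 lower at an unadjusted p under 0.05, against 11.8%. DESeq2 and the exact test on all dispersions each called 1 as lower, with 6 and 7 at that p. In ±st(SCI) these tests called 0, and the 1 RNA lower at that p by the quasi-likelihood test was AABR07043200.1, which the study had listed for this very contrast, so its p restates the choice. In ±st/SCI(0) 1 of 29, the Y RNA AABR07060522.2, was called by the quasi-likelihood test as lower in C, against 7.13% of all genes, with 6 lower at that p, against 16.5%. DESeq2 called 2 and the exact test on all dispersions 3, each with 8 at that p. For DESeq2 and the exact test no share of all genes is given in these contrasts, so their counts cannot be set against it. In group A AABR07060522.2 was at 1200 CPM in rat 82 and at most 88.8 CPM in the other rats. This call was lost without rat 82, without any single rat of groups B, C or E, with scaling by total counts, with robust dispersions and with a term for the number series. Without rat 82 the quasi-likelihood counts in ±SCI(0) and ±st/SCI(0) were 0 called and 0 at that p.

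**Figure D3:**
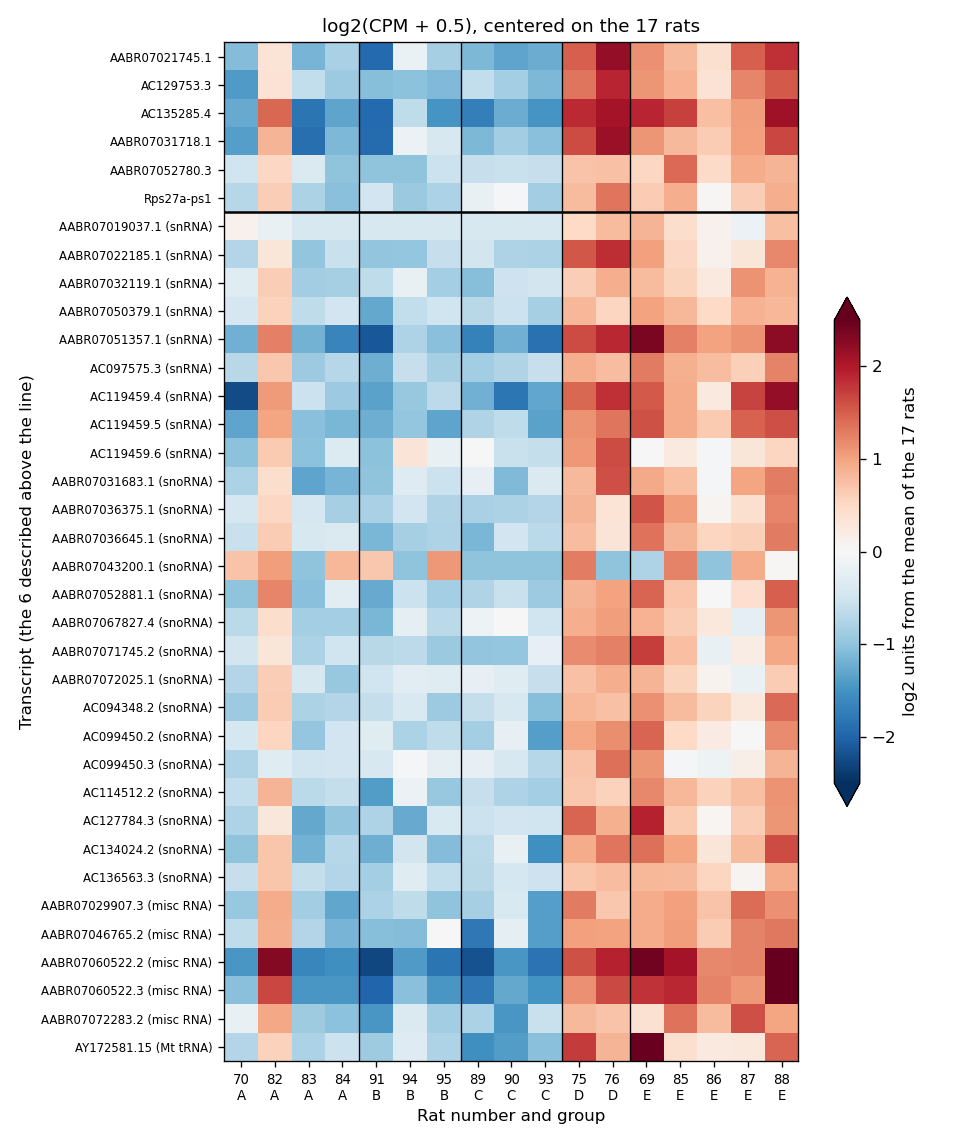
log2(CPM + 0.5) of the 6 transcripts (above the line) and the 30 other small RNAs of the study in each rat, centered on the mean of 17 rats; red is above and blue under the mean. The columns of groups D and E and of rat 82 are red for most rows; AABR07043200.1 is under the mean in rats 76, 69 and 86, and AABR07019037.1 and AC099450.3 are under it in rat 82.

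The number of genes detected moved with the transcripts. In the 8 libraries of rat 82 and groups D and E, 19026 to 19409 genes had at least 1 count, and in the other 9 libraries 18629 to 18988, without overlap. The total counts of the same sets, 10513421 to 14137717 and 9852873 to 11664116, overlapped. The part of the number of genes detected in the levels of the 6 transcripts was not tested. By rat number, 69 to 76 and 82 to 95 form 2 series: in the first, rat 70 (A) was low and rats 69 (E), 75 and 76 (D) were high, and in the second, the 4 rats of E and rat 82 were high. Group D lies in the first series and groups B and C in the second, so ±pim(st/SCI) has no value within a series. In a fit with a term for the series, which groups A and E inform, the 6 transcripts had a log2(FC) in ±pim(st/SCI) of 2.09 to 4.23, and for ±st(0) the values were 1.22 to 2.04.

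Markers of blood overlapped between these 8 and 9 libraries, but were lower in D than in C. The red cell and neutrophil genes had names here because the study listed them as changed with stimulation or pimozide in injured rats. Their lower levels in D than in C therefore follow in part from that choice. The summed level of 8 red cell genes was 233 to 1080 CPM in rat 82 and groups D and E and 212 to 1790 CPM in the other 9 rats, with 233 to 351 CPM in D and 603 to 1790 CPM in C. The hemoglobin genes Hba-a1 and Hbb, the most abundant of them, averaged 122 ± 23.5 and 113 ± 21.3 CPM in B, 370 ± 231 and 317 ± 183 CPM in C and 99.6 ± 21.0 and 99.9 ± 28.7 CPM in D. The summed level of 6 neutrophil genes was 6.37 to 72.0 CPM against 5.52 to 122 CPM, with 19.6 to 29.7 CPM in D and 73.9 to 122 CPM in C. Neither sum overlapped between D and C, but no share of all genes is given beside this, and it too follows the choice. The part of blood cells in the difference between these groups was not tested. The most abundant neutrophil genes, S100a9 and S100a8, averaged 8.19 ± 2.05 and 5.67 ± 0.432 CPM in B, 41.7 ± 9.96 and 29.2 ± 6.31 CPM in C and 11.4 ± 2.17 and 6.2 ± 1.2 CPM in D. In the 3 tested contrasts and in ±st(0), 0 of 8 and 0 of 6 were called by edgeR's quasi-likelihood test, which called 0.0% of all genes in ±st(SCI) and ±st(0), so this does not show that their levels were alike. Markers of neurons and glia, and the proteins that bind the 6 RNAs, had no names in the tables used here, so the tissue label was not checked.

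**Figure D4:**
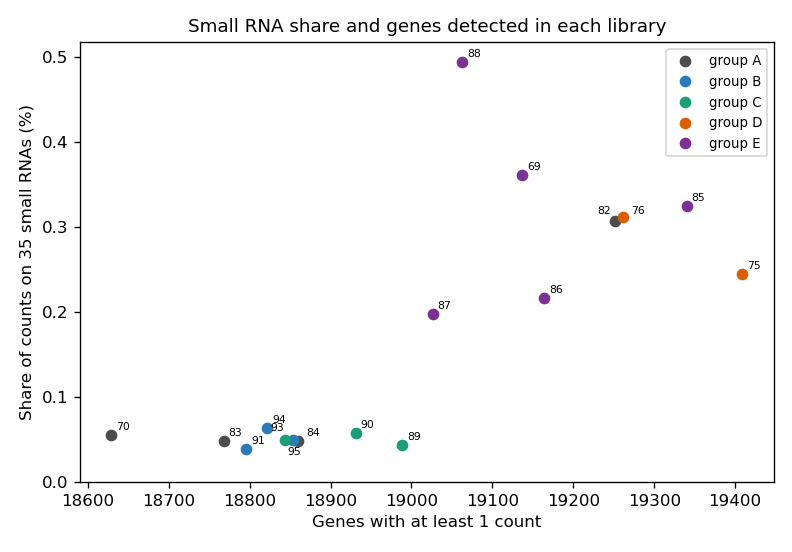
Share of each library's counts on the 35 small RNAs (vertical axis, percent) against the number of genes with at least 1 count (horizontal axis); each dot is a rat, labelled by its number. Rat 82 of group A lies with the rats of D and E, and the other 9 rats have shares of 0.0392 to 0.063%.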

How the data were processed

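RNA from each cord, its 3 levels combined, was made into stranded, ribosomal RNA-depleted libraries. The authors trimmed reads (Trim Galore 0.4.1), aligned them with STAR 2.5.0a and deposited whole-number counts per Ensembl gene, without normalization; the versions are from the submitters' processing notes. These notes name the build rn6 and the paper an older one, and the strand setting of the counts is not given in the sources used here. Samples were grouped by the letter of their titles, and replicates are separate rats.

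Counts were fitted in R 4.3.3 with edgeR 4.0.16 (filterByExpr, TMM, glmQLFit on all 17 rats, glmQLFTest, Benjamini-Hochberg adjustment). DESeq2 1.42.0, edgeR's exact test, other scalings and filters, a term for the number series and leaving out each rat were alternatives. The fit was tested on simulated data. Python 3.11.15 summarised the results. The 6 transcripts, the gene lists and the tests were chosen with earlier results of these data known. Named besides the 6 were the 6 tested genes of highest r, the 2 most abundant small RNAs per class and the 2 most abundant genes of a list; AABR07043200.1, LOC100361457, Rps21-ps1, AABR07019037.1 and AC099450.3 were named after their values were seen. Names came from the study's list (99 identifiers). Of 15 lists of markers and binding partners, the red cell and neutrophil lists were matched in full and the others not at all. RefSeq named 1 of the 6, Rps27a-ps1, as a pseudogene, and none of the 6 had a RefSeq promoter entry under these names. A bounded value (3 counts over the group) for AABR07043200.1 left the median of its list as given.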

Additional observations from a re-analysis of the deposited data

Results flagged for a closer look

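Rat 82 stood far from the other 3 rats of group A. The gap between it and the next rat, divided by the range of the group, was 0.851 for AABR07021745.1, 0.943 for AC135285.4, 0.878 for AABR07031718.1, 0.882 for Rps27a-ps1 and 0.973 for the share of counts on small RNAs, each above Dixon's limit for 4 samples. Of 14 such tests in groups A and E, 5 passed their limit, all for rat 82. Chance passes about 1 group in 20, and the 5 are not independent, because they come from 1 library.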

How the results depend on the processing

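No paired analysis was possible because each rat has a number of its own and no number recurs between groups. In ±SCI(0), ±st(SCI) and ±st/SCI(0), 0 transcripts were called under each alternative run. All 6 were tested under each, except that a fit and filter restricted to both groups compared tested 4, 3 and 4 of them, and the smallest adjusted p over the alternatives was 0.066, 0.65 and 0.062. Without rat 82, log2(FC) changed sign in ±SCI(0) for AABR07021745.1 (0.31), AC135285.4 (0.25), AABR07031718.1 (0.88) and Rps27a-ps1 (0.25), and in ±st/SCI(0) for AC129753.3 (0.13), AABR07031718.1 (0.49), AABR07052780.3 (0.09) and Rps27a-ps1 (0.87). Without rat 91 it did in ±SCI(0) for AABR07021745.1 (0.05) and AABR07031718.1 (0.15), without rat 94 in ±st(SCI) for AABR07021745.1 (0.13) and AC135285.4 (0.30), and without rat 93 in ±st/SCI(0) for Rps27a-ps1 (0.24). With each rat left out in turn, log2(FC) in ±SCI(0) ranged from -1.24 to 0.31 for AABR07021745.1, -1.97 to 0.25 for AC135285.4, -0.62 to 0.88 for AABR07031718.1 and -0.95 to 0.25 for Rps27a-ps1. In ±st(SCI) it ranged from -1.16 to 0.13 for AABR07021745.1 and -0.57 to 0.30 for AC135285.4. In ±st/SCI(0) it ranged from -0.74 to 0.13 for AC129753.3, -0.93 to 0.49 for AABR07031718.1, -1.45 to 0.09 for AABR07052780.3 and -0.32 to 0.87 for Rps27a-ps1. In ±pim(st/SCI) and ±st(0) no alternative changed a sign. The number of other small RNAs called in ±st(0), for which the alternatives were chosen after seeing the data, was 0 by the quasi-likelihood test, 6 by DESeq2 (of 19 with an adjusted p), 3 by each form of the exact test, and 0 to 22 with a rat left out, with 22 without rat 82. The causes were not tested. AABR07052780.3 had 0 to 28 counts per rat, so its values are limited by depth, and without rat 95 group B has 0 counts of it and no fold is given.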
